A study of Mus musculus with 7 samples.

Results

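Ecad-positive solid tumour cells were single cells sorted from dissociated mammary tumours of PyMT mice, a model of breast cancer in which the polyoma virus middle T antigen is carried as a transgene. They filled 96 wells of 4 single-cell libraries, and the 71 wells with at least 500 transcripts of mouse genes were used, of 381 cells that pass the same limit in the whole series. Libraries 1 to 4 gave 18, 19, 16 and 18 cells. The 4 shallowest cells kept held 530.0, 537.6, 542.1 and 552.2 transcripts, and the nearest wells left out held just under 500, then 454.8, 430.5 and 306.0. Cells were sorted by E-cadherin (Ecad), a junction protein whose gene is Cdh1. These cells are called TEpos below.

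The same 4 libraries held 69 used TEneg cells (labelled solid tumour, Ecad negative) and 60 used BEneg cells (labelled circulating tumour cells, Ecad negative), and library 1 also held 20 used BEpos cells (circulating, Ecad positive). All of these groups came from PyMT mice. Strain, age, the promoter of the transgene, how Ecad was stained and how many animals were pooled are not given in the sources used here. RNA was read by CEL-seq, which adds a well barcode for the cell and a random barcode for the molecule and counts the 3′ ends of transcripts. Each transcript gives 1 end, so levels are not divided by gene length, and they are given as transcripts per 10000 transcripts of the same cell or library.

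The mammary gland has an inner luminal epithelium, which makes milk, and an outer layer of contractile basal (myoepithelial) cells. Luminal cells are known for the keratins Krt8 and Krt18, for Epcam and Cdh1, and, in their secretory state, for caseins, whey proteins and iron-binding proteins. Tumours of PyMT mice are known to arise from luminal epithelium.

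TEpos cells held a median of 2064 transcripts (lowest 530, highest 16913) from a median of 1115 genes. The sums per library were 59608, 71894, 30163 and 27416 transcripts, and the single deepest cell supplied from 11.04% of the sum in library 4 to 31.4% in library 3. TEneg cells were shallower (median 1603) and BEneg cells shallower still (median 819). All 4 libraries used the same 24 well barcodes for TEpos wells. Across pairs of libraries, levels of 1719 genes correlated with Pearson r from 0.807 to 0.903, a description over genes, which are not independent.

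The sorting label was set against its markers before any comparison. Epcam, a surface adhesion protein of epithelium, was read in 62 of 71 TEpos cells, Krt18 in 50, Krt8 in 45 and Cdh1 itself in 43. Csn3 and Wfdc18 were each read in 69. After every cell was thinned to 500 transcripts, the mean share of cells with at least 1 Epcam transcript was 52.5% in TEpos, 26.6% in TEneg and 10.5% in BEneg. The corresponding shares for Cdh1 were 25.03% (SD 12.9 over libraries), 15.6% (SD 6.08) and 19.3% (SD 6.23). Before thinning they were 41.9% in TEneg and 34.7% in BEneg. The thinned Cdh1 shares of these 2 Ecad-negative groups lay within the spread of their libraries and also within that of the TEpos libraries. BEneg cells went against their label as tumour cells: neutrophil genes made up 8.21% of their transcripts against 0.262% in TEpos, and Lyz2, the lysozyme of myeloid cells, was read in 40 of 60 cells against 5 of 71. TEneg library 2 stood apart through 1 cell of 61227 transcripts, which supplied 55.7% of that sum, so comparisons with TEneg are also given without it.

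A small group of secretory genes led the TEpos profile. Wfdc18, which encodes a small secreted whey acidic protein domain protein, stood at 216, 89.6, 118 and 120 transcripts per 10000 in libraries 1 to 4 (136 ± 55.2, SD, n = 4). Library 1 was the highest and library 2 the lowest. Csn3, which encodes kappa casein, the casein that stabilises milk micelles, stood at 147, 110, 106 and 178 (136 ± 33.7). Lcn2, a secreted protein that binds iron-loaded siderophores, stood at 111, 131, 119 and 137 (124 ± 11.4), with all libraries close together. Trf, the iron carrier transferrin, stood at 57.9, 67.6, 59.97 and 67.9 (63.3 ± 5.15). Wfdc18 was the highest of these genes in library 1, Lcn2 in libraries 2 and 3 and Csn3 in library 4. Means of Wfdc18, Csn3 and Lcn2 did not differ beyond their spread over libraries, and Trf lay below all 3 in every library.

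In the mm10 genome, Wfdc18 lies at chr11:83709015-83711348 (+), Csn3 at chr5:87925579-87932665 (+), Lcn2 at chr2:32384633-32388252 (−) and Trf at chr9:103204001-103230444 (−), as annotated by GENCODE. The 250 bases before the RefSeq start of Wfdc18 (GRCm38.p6, chr11:83708754-83709003, plus strand) are shown because this gene is among the 3 that lead the profile and is compared with TEneg below. The capitals mark TATAAA, the letters of a TATA box, 31 to 26 bases before the start.

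Wfdc18: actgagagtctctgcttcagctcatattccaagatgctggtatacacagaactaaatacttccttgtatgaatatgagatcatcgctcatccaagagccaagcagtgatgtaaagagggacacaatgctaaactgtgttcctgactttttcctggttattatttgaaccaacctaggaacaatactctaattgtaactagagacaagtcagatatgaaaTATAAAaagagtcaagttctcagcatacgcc

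TATAAA was searched on both strands of the 250-base windows and lay in 12.4% of 32851 such windows of the RefSeq table. A match of letters is a description and not a shown site.

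The rest of the 25 most abundant genes outside the ribosomal protein genes were mostly genes that nearly all cells use. Ptma, which encodes the chromatin-associated protein prothymosin alpha, was read in all 71 cells at 65.9 ± 13.6 per 10000 (SD, n = 4). Tpt1 stood at 60.2 ± 7.35, the elongation factor gene Eef1a1 at 53.9 ± 12.5 and the actin gene Actg1 at 50.3 ± 4.65. Igfbp5, a secreted binding protein of insulin-like growth factors, stood at 39.8, 40.3, 36.5 and 76.2 (48.2 ± 18.7), with library 4 alone above the rest. Fos, an AP-1 transcription factor gene that cells induce within minutes of a stimulus, stood at 47.96, 23.9, 29.3 and 34.4 (33.9 ± 10.3). Phlda1, also induced by growth signals, kept between 23.7 and 27.9 in all libraries (26.4 ± 1.94). The chaperone genes Hspa8 and Hsp90ab1 stood at 25.8 and 22.2. Gm6402, Gm6654, Gm6251 and Rpl31-ps12 were also among the 25, but they are predicted genes or pseudogenes that can share reads with other genes, so their levels are uncertain.

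**Figure D1:**
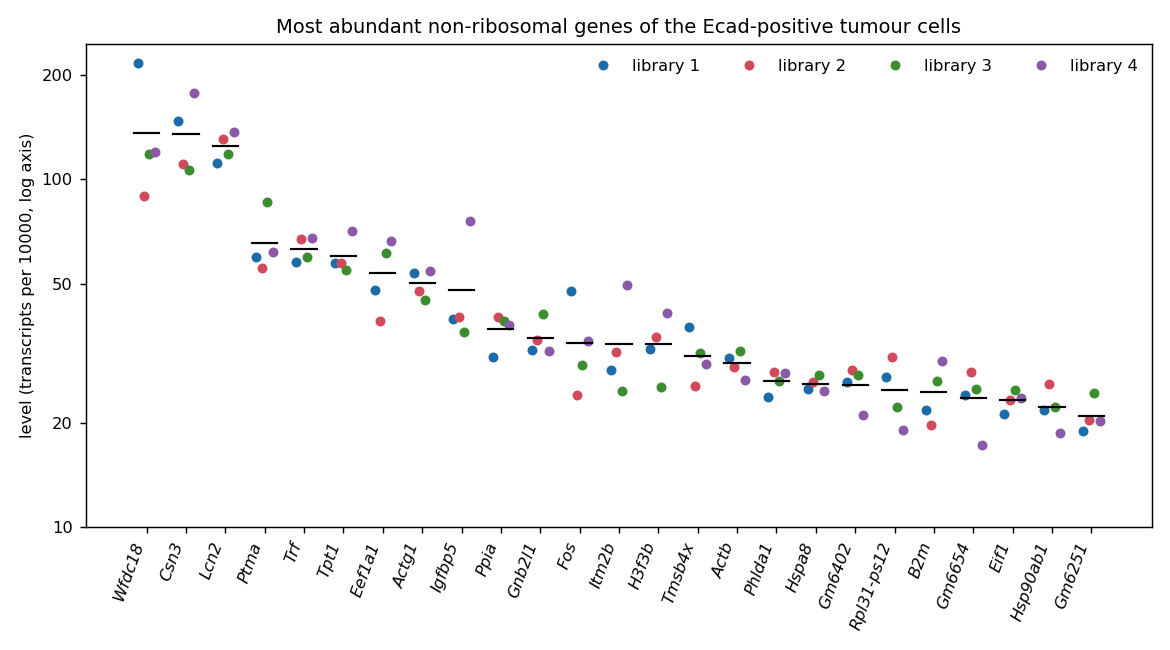
Level of the 25 most abundant TEpos genes outside the ribosomal protein genes, in transcripts per 10000 on a log axis. Coloured points are the 4 libraries and the black bar is their mean. Wfdc18, Csn3 and Lcn2 lead with means from 124 to 136, and Igfbp5 has 1 library, at 76.2, well above the rest.

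Together these 25 genes held 11.9 ± 0.915% of TEpos transcripts (SD, n = 4). Cytosolic ribosomal protein genes held another 23.6%, 24.02%, 23.02% and 19.2%, and 35 of the 50 most abundant genes were ribosomal. Library 4 was the lowest, and 46 of the 69 ribosomal genes with at least 10 transcripts per 10000 had their lowest level there. A transcript of 9592 of the 11753 genes of the table was seen in TEpos, but 1806 of these in 1 cell only and 381 in at least 36 cells.

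The list of milk and other secreted luminal genes held 5.71%, 4.24%, 4.16% and 5.33% of TEpos transcripts (4.86 ± 0.780%, n = 4). Of 28 genes on the list 23 were in the table, 22 were seen and 12 reached a mean of 1 transcript per 10000, so most of the share came from Wfdc18, Csn3, Lcn2 and Trf. Ltf, the iron-binding milk protein lactoferrin, was next at 23.1, 9.86, 3.32 and 13.1 (44 cells). Lalba, which encodes the lactose synthase subunit alpha-lactalbumin, stood at 2.96 ± 1.30 in 22 cells. Pigr, the receptor that carries antibodies into milk, stood at 2.12 ± 0.81 in 24 cells. The other major milk genes were rare: Wap was read in 13 cells, Csn1s1 in 12 and Csn2, beta casein, in 3, although Csn3 was read in 69.

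Secretory content ran from 0.912% to 10.5% of a cell's transcripts, with a median of 4.65%. The highest cell, from library 4, held 780 transcripts, of which 48 were Csn3, 18 Lcn2 and 7 Wfdc18. A library 1 cell of 2708 transcripts came close to it (9.67%) with the opposite make-up, 221 Wfdc18 transcripts against 10 of Csn3. The deepest cell of library 1 held both, with 576 of Wfdc18, 311 of Csn3, 135 of Lcn2 and 122 of Ltf. The others of the 5 highest cells, 1 of library 4 and 1 of library 1, were led by Csn3 (56 and 111 transcripts). Cells high in the list were thus not all high in the same genes, and the contrast lay between Wfdc18 and Csn3.

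Ranks over cells are given as a description over 71 cells that share library, depth and a common total. After thinning, the Spearman rho of Csn3 with Wfdc18 was 0.17, 0.41, -0.12 and -0.16 within libraries 1 to 4 (mean 0.08). Csn3 with Lcn2 gave 0.18, 0.26, 0.61 and 0.47 (mean 0.38). Lcn2 with Trf and Wfdc18 with Igfbp5 also averaged 0.38. These pairs were positive in all 4 libraries, as were Csn3 with Igfbp5 (mean 0.30) and Csn3 with Trf (mean 0.14). The sign differed between libraries for Csn3 with Wfdc18. It also differed for Wfdc18 with Lcn2 (0.15, 0.20, -0.20 and 0.19) and Wfdc18 with Trf (0.23, 0.21, -0.25 and -0.06). Lcn2 with Ltf gave 0.09, -0.01, -0.20 and -0.11.

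Genes of the secretory machinery were read at even levels. The list held 1.06 ± 0.116% of transcripts, led by Calr, a calcium-binding chaperone of the endoplasmic reticulum (9.05 ± 2.6 per 10000), Serp1 (7.97 ± 1.8) and the disulfide isomerase gene P4hb (7.75 ± 1.9). The unfolded protein response list held 0.118%, with Atf4, its translation-controlled transcription factor, at 3.74 ± 1.1. Lipid synthesis genes included Srebf1, a regulator of that pathway, at 4.78 ± 0.67 in 39 cells and the desaturase gene Scd2 at 5.93 ± 2.4 in 40 cells. Fabp4, the fatty acid binding protein of adipocytes and capillaries, was read in 6 cells, at 10.2 per 10000 in library 3 against 0.504, 0.139 and 0 in libraries 1, 2 and 4. The library 3 value rested on its deepest cell, which held 30 of the 31 Fabp4 transcripts.

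Luminal structure genes were present in most cells at lower levels. Epcam stood at 11.8, 12.7, 20.2 and 15.8 per 10000 (15.1 ± 3.795, SD, n = 4). Krt18 stood at 16.96, 6.46, 14.7 and 7.71 and Krt8, its filament partner, at 11.97, 6.61, 14.3 and 8.88. The sums of both keratins were higher in libraries 1 and 3 than in libraries 2 and 4. Cell medians did not repeat this for library 3. In libraries 1 to 4 they were 16.4, 5.07, 5.36 and 6.96 for Krt18. For Krt8 they were 7.12, 6.37, 4.83 and 0. Cdh1 stood at 3.37, 3.64, 10.7 and 5.86, with library 3 highest. The tight junction gene Cldn3 stood at 6.56 in 50 cells. The epithelial list as a whole held 0.812 ± 0.116% of transcripts and reached 3.501% in 1 library 3 cell of 2304 transcripts, with 26 Krt18, 22 Krt8 and 13 Epcam transcripts.

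Among luminal regulators, Sox9, a transcription factor of progenitor cells, was read in 52 cells at 9.95, 5.50, 11.02 and 10.6 per 10000. Cebpb, needed for secretory development of the gland, was read in 49 cells at 8.003 ± 1.83. Gata3, the main luminal transcription factor, was read in 42 cells at 4.56, 3.64, 4.32 and 6.59. Sox10 was also read in 42 cells (4.39 ± 1.70) and Ehf in 32. Sums of Hes1, a target of Notch signalling, stood at 7.98 and 7.33 in libraries 1 and 4 against 1.82 and 0.997 in libraries 2 and 3. The library 1 sum leaned on its deepest cell, which held 27 of the 84 Hes1 transcripts of TEpos. Cell medians of Hes1 were 2.90, 0, 0 and 6.02 in libraries 1 to 4.

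The hormone-sensing genes were read in few cells at this depth. Esr1, the oestrogen receptor, was read in 0 of 71 cells, which allows a share of up to 4.23% of cells that give a read at this depth and sets no limit on the share that express the gene. Pgr, the progesterone receptor, and Foxa1 were each read in 4 cells, and Elf5, the regulator of the alveolar lineage, in 2. Prlr, the prolactin receptor, was read in 12 cells, and 1 library 1 cell alone held 15 of its transcripts. That cell also held 8 transcripts of Hes1, 6 of Sox9, 3 of Gata3 and 3 of Foxa1, and had the highest luminal regulator share of all cells (1.04%).

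Immediate early genes, which are switched on within minutes by growth factors or by handling and dissociation of tissue, held 2.67%, 1.87%, 1.86% and 2.09% of TEpos transcripts (2.12 ± 0.381%, n = 4). All 37 measured genes of the 42 on the list were seen. Behind Fos and Phlda1 came the RNA-binding protein gene Zfp36l1 at 17.1 ± 2.4, Jun, the partner of Fos in AP-1, at 13.9 ± 2.24, and Zfp36, whose product speeds decay of cytokine messages, at 13.6 ± 2.12. Egr1, an early zinc finger transcription factor gene, stood at 8.14 ± 1.73. Fosb stood at 13.5, 6.24, 3.33 and 9.20, the widest range of these.

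The immediate early share of single cells ran from 0.365% to 4.89%, with a median of 1.88%. The highest cell, a library 1 cell of 1789 transcripts, held 22 transcripts of Fos, 8 of Phlda1 and 7 of Dusp1. The deepest library 1 cell held 119 Fos and 42 Fosb transcripts, of 286 Fos transcripts in that library. A library 4 cell of 2333 transcripts was instead led by Zfp36l1 with 18 and Phlda1 with 14. Within libraries, Fos ranked with Zfp36 at a mean rho of 0.34, a weak relation in sparse counts.

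The windows before Fos and Dusp1, which encodes a phosphatase of MAP kinases, are shown because both hold TGACGT, the core letters of the cAMP response element, and both differ between TEpos and TEneg below. Capitals mark TGACGT on either strand and, in Fos, TATAAA. In Fos (GRCm38.p6, chr12:85473640-85473889, plus strand) they lie 66 to 61 and 33 to 28 bases before the start. In Dusp1 (chr17:26508473-26508722, minus strand) the TGACGT matches lie at 191 to 186 and 143 to 138, and the last overlaps a match on the other strand at 141 to 136.

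Fos: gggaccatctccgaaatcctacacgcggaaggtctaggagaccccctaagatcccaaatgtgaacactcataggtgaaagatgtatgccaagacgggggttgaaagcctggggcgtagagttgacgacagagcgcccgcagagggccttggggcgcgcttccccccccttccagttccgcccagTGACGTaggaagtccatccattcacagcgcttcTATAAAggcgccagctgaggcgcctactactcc
Dusp1: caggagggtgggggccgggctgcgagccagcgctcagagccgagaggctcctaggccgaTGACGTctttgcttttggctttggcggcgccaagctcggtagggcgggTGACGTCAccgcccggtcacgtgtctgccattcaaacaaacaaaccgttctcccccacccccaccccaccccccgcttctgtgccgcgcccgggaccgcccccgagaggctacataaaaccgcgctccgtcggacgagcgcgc

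Of the 42 immediate early genes, 31 had a window in the RefSeq table and 8 of these (25.8%) held TGACGT, against 6.47% of all 32851 windows. These 8 were Atf3, Btg1, Btg2, Dusp1, Egr2, Fos, Maff and Tnfaip3. TGANTCA, the AP-1 letters, lay in 3 of the 31 (9.68%) against 6.75% of all windows. A listed gene counts when any of its windows matches, while the share of all is over single windows, so the shares are not of like units. Of the 28 milk genes 20 had a window and 0 held TGACGT. Of these 20, 3 (15%), Csn1s1, Csn2 and Glycam1, held TTCNNNGAA, the STAT letters, which lie in 7.02% of all windows.

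The heat shock share varied little between libraries. Its range over single cells was wider, but cell shares are not corrected for depth. The list held 1.05 ± 0.0639% of transcripts in TEpos, led by the constitutive chaperones Hspa8 (25.01, 26.1, 27.4 and 24.7) and Hsp90ab1 (22.2 ± 2.9). Hspb1, a small stress-inducible chaperone, stood at 9.68, 11.5, 11.1 and 7.32. The list ran from 0.189% to 2.29% per cell with a median of 1.01%. Of the 5 highest cells, 3 came from library 3, and 1 of them was the keratin-rich cell named above, with 14 Hspb1 transcripts. Immediate early and heat shock shares ranked together with a mean within-library rho of 0.24, and in library 1 with -0.01.

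**Figure D2:**
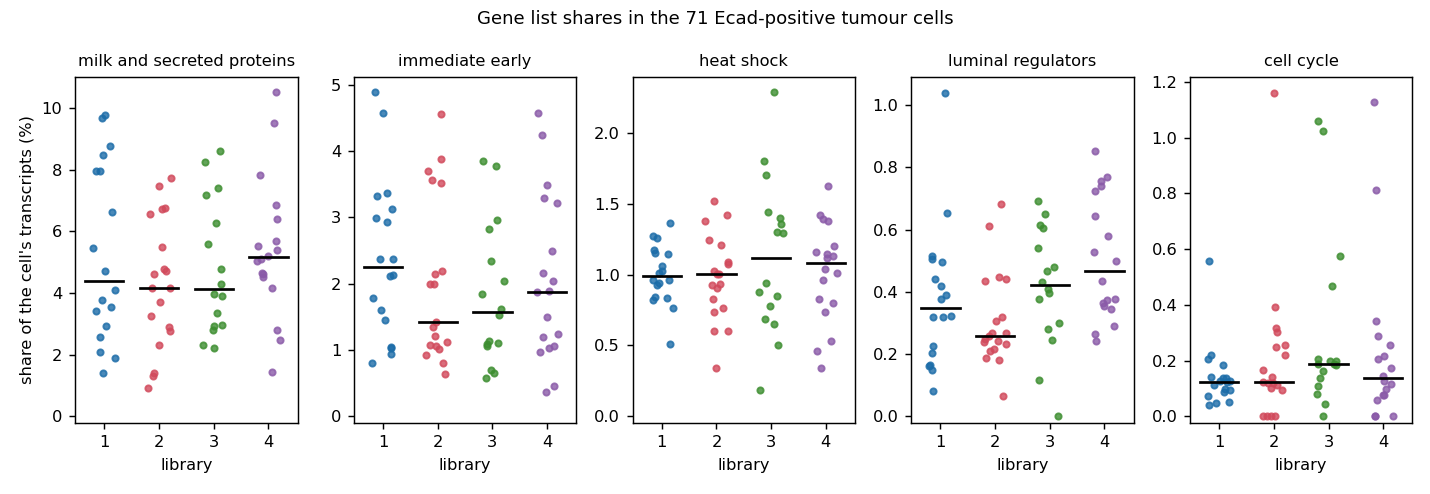
Share of each TEpos cell's transcripts in 5 gene lists, in percent, with 1 point per cell placed by library and a bar at the library median. The milk and secretory share runs from 0.912% to 10.5%, and a few cells reach about 1% for cycling genes against a median of 0.138%.

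Genes of cell division were rare. Together the G1/S and G2/M lists held 0.146%, 0.319%, 0.263% and 0.286% of transcripts, and 48 of 51 measured genes were seen. Pcna, the DNA polymerase clamp, was read in 21 cells, and Mki67 and Top2a, both marks of proliferating cells, in 12 each. At least 5 different genes of the lists were read in 20 of 71 cells (5, 8, 5 and 2 in libraries 1 to 4), and none in 8 cells. These counts are not corrected for depth.

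The cell with most division genes, of library 2, held 92 of their transcripts from 32 genes among 7926 (1.16%). G1/S genes led there, with 10 transcripts each of Pcna and Rrm2, a ribonucleotide reductase subunit, and its milk share was low at 1.32%. A library 4 cell of 3026 transcripts was instead led by mitotic genes (Ube2c 5, Ccnb1 4, Cdk1 4) and held 5.69% milk genes, above the median. A library 3 cell of 1324 transcripts held 14 transcripts of 10 mitotic genes and none of G1/S. Across cells, the milk and division shares had a mean within-library rho of -0.08. Division genes were too few for a test against the other populations, as only 1 passed the filter on low counts.

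Spread between cells was measured as the variance to mean ratio within libraries after thinning, where counting noise alone gives about 1. Of 137 genes with a thinned mean of at least 0.5 transcripts per cell, 16 were above 1.5, and none of the 69 ribosomal genes was (median 1.05, highest 1.31). After thinning to 500 transcripts, secreted protein genes took the top 8 places: Clca3 15.1, Car6 10.4, Scgb1b27 8.24, Wfdc18 6.06, Csn3 5.74, Lcn2 3.51, Scgb2b27 3.26 and Igfbp5 2.83. S100a6, Trf, B2m, Krt8, Fos, the ribosomal RNA gene Rn45s, Krt18 and Zfp36 followed, from 2.37 to 1.62. Clca3 and Scgb1b27 rested on library 2, without which they fell to 2.42 and 2.14. For Clca3 this was 1 well of 552 transcripts, 58 of them Clca3. When the 58 cells of at least 1000 transcripts were thinned to that depth, which leaves this well out, Clca3 had a ratio of 3.39 and lay below S100a6 (4.26), Fos (3.59) and Krt8 (3.52), while Car6 had 22.2, Scgb1b27 15.5 and Wfdc18 11.3.

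**Figure D3:**
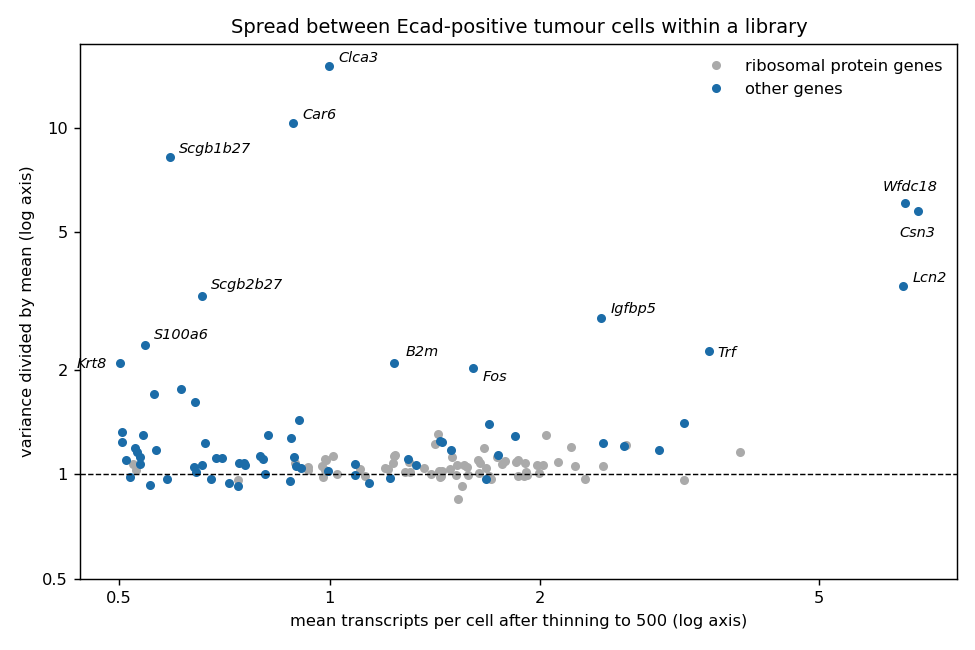
Variance to mean ratio between TEpos cells against mean transcripts per cell after thinning to 500, both on log axes, for 137 genes; the dashed line marks a ratio of 1. Ribosomal genes (grey) stay at or below 1.31, and other genes (blue) reach 15.1, led by secreted protein genes.

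Levels in single cells show what the ratios describe. Wfdc18 ran from 0 to 816 per 10000 with a median of 90.995, Csn3 from 0 to 619 with a median of 114, and Lcn2 from 0 to 372 with a median of 112. Csn3 had a cell median of 172.9 in library 4 and 42.8 in library 2. Igfbp5 had a cell median of 63.8 in library 4 against 19.7 to 25.002 in the other libraries, so its higher sum there did not rest on 1 cell. Wfdc18 in library 1 did lean on 1 cell: 576 of its 1288 transcripts came from the deepest cell, and the cell median of 126.3 lay nearer to the 80.2 to 99.0 of the other libraries.

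A group of genes from other glands was concentrated in few cells. Car6, the secreted carbonic anhydrase of saliva, stood at 20.4, 24.2, 11.02 and 1.46 per 10000, and the secretoglobin genes Scgb2b27 and Scgb1b27 at 7.89, 13.8, 17.7 and 3.29 and at 1.35, 25.5, 11.8 and 0.365. A list of 8 such genes was drawn up after these values were seen. In 1 library 2 cell of 2688 transcripts they made up 13.97% (Scgb1b27 146, Car6 128, Scgb2b27 46). A library 1 cell of 2708 transcripts held 103 Car6, 20 Scgb2b27 and 0 Scgb1b27 transcripts, and was also the Wfdc18-rich cell above. In the first library of experiment i, also labelled as Ecad-positive tumour cells, 25 of 95 cells held at least 10 transcripts of this list.

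A second such list, of 10 intestinal secretory genes, was highest in a well of 1 barcode. Clca3 and Muc2 are products of mucus-secreting goblet cells. In library 2 the well with barcode catcacgc held 552 transcripts, of which 133 (24.1%) were from this list, with 58 of Clca3, 22 of Mptx1 and 12 of Muc2. It held 0 transcripts of Csn3, Wfdc18, Lcn2, Trf and Cdh1, 2 of Epcam and 2 of Krt8. The wells of the same barcode held 39 list transcripts in library 1 (1.79%) and 55 in library 3 (0.575%), and the unused well of library 4 held 25 among 259. The other 68 TEpos cells had a median of 0.0255%, 32 had none, 2 library 3 cells reached 2.71% (15 of 557 transcripts) and 2.02% (32 of 1601), above the wells of this barcode in libraries 1 and 3, and 226 of all 376 list transcripts lay in the 3 used wells of this barcode. Whether these transcripts belong to the sorted cells was not tested.

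**Figure D4:**
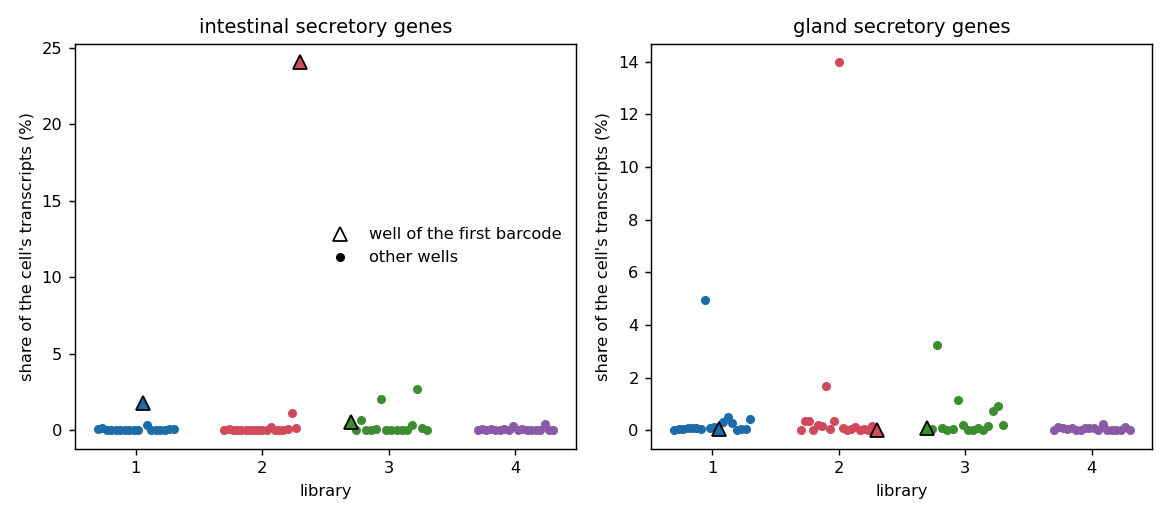
Share of each TEpos cell's transcripts, in percent, in 2 lists chosen after the values were seen, by library. Triangles are wells of the barcode catcacgc. The intestinal list peaks at 24.1% in 1 library 2 well of that barcode, and the gland list at 13.97% in another library 2 cell.

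Levels also differed between libraries, each a sum over 16 to 19 different cells. Over 132 genes of at least 10 transcripts per 10000, the median coefficient of variation (SD over mean of the 4 libraries) was 15.7%, and counting noise alone gives a median of 9.69%; drawing different cells adds to that noise, so the 2 values are a description. In 15 genes it was above 30%, led by Car6 (71.3%), S100a6 (71.3%), Ltf (66.9%), Scgb2b27 (59.5%), S100a9 (53.8%), Krt18 (45.03%), Eef2 (43.97%) and Wfdc18 (40.6%). The calcium-binding protein gene S100a6 stood at 11.9, 5.35, 24.1 and 6.61. Single cells weighed on Car6, Ltf and S100a6. Of Car6, 1 library 2 cell held 128 transcripts and 1 library 1 cell held 103. The deepest library 1 cell held 122 transcripts of Ltf. S100a6 reached 173 per 10000 in 1 library 3 cell, where the cell median was 7.93. The steadiest genes were ribosomal: Rpl10 (2.70%), Rpl18 (3.51%), Rpl15 (3.89%) and Rpl5 (4.27%).

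Markers of other cells were low but not absent. The basal list held 0.0609% of TEpos transcripts, 11 of its 12 measured genes were seen and Krt15 was at 0; Krt5, a defining basal keratin, was read in 1 cell and Acta2, smooth muscle actin, in 16. The library 2 cell with most basal transcripts held 9 of Acta2 and 8 of Tagln. The endothelial list held 0.0677% (Emcn at 0) and the leukocyte list 0.0747% (Ptprc and Cd37 at 0). S100a9, an abundant neutrophil protein, was read in 62 of 71 cells at 10.7, 8.87, 8.01 and 22.5 per 10000, and after thinning in 46.5% of TEpos against 88.5% of BEneg cells. Its partner S100a8 was read in 54 cells at 8.86 ± 1.86. Of 13 neutrophil genes 12 were seen, with summed shares of 0.183% to 0.386% in TEpos, 0.109% to 0.433% in TEneg and 4.72% to 10.7% in BEneg libraries. Lyz2 stood at 0.336, 0, 0.332 and 0.731. Whether S100a9 transcripts come from the TEpos cells was not tested.

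The next comparison set TEpos against TEneg cells of the same libraries, both labelled as solid tumour cells and sorted apart by Ecad. Sums per library were fitted together for TEpos, TEneg and BEneg with library as a block (edgeR quasi-likelihood test), and changed means a Benjamini-Hochberg adjusted p under 0.05 over all 736 genes tested. The labels tie no library to an animal, so p measures how far these libraries vary, be that technical or not. Of 736 genes, 55 were called (7.47%), 17 higher in TEpos (2.31%) and 38 lower (5.16%). Without the TEneg cell of 61227 transcripts the calls were 101, of which 39 higher. Without library 1 they were 34, without library 4 they were 26, and without the TEpos wells of the barcode above they were 59.

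Of the 6 markers, Wfdc18 and Csn3 were higher in TEpos. Wfdc18 stood at 62.96, 78.8, 62.2 and 23.6 per 10000 in TEneg libraries 1 to 4, all below the lowest TEpos library. Its difference was 1.18 on the log2 scale (SE 0.237, adjusted p = 0.000634), higher in 4 of 4 libraries. Leaving out library 4 gave 0.92 with adjusted p = 0.0680, and cells of at least 1500 transcripts gave adjusted p = 0.0713. Csn3 stood at 56.2, 106, 55.2 and 72.9 in TEneg, also without overlap, but its library 2 value lay next to the lowest TEpos library (105.97 against 106.4). Its difference was 0.86 (SE 0.217, adjusted p = 0.00672) and was lost without library 1 (0.57, adjusted p = 0.292), 3 or 4, without the library block (adjusted p = 0.216) and by DESeq2 (adjusted p = 0.143).

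The other 4 markers did not pass. Epcam differed by 0.81 (SE 0.265, adjusted p = 0.0538) with TEneg libraries at 7.02, 11.7, 5.51 and 5.26, all below the lowest TEpos library. Krt18 differed by 0.83 (adjusted p = 0.0683) and Krt8 by 0.66 (adjusted p = 0.166), each higher in 4 of 4 libraries with overlapping groups. Cdh1, the gene of the sorted protein, differed by 0.05 (SE 0.364, adjusted p = 0.978) and was higher in 2 of 4 libraries. Without the large TEneg cell Epcam differed by 1.15 (adjusted p = 0.000519), Krt18 by 0.92 (adjusted p = 0.0171) and Krt8 by 0.86 (adjusted p = 0.0276), and all 3 passed.

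Within the secretory list, 2 of 5 tested genes were higher, the same Wfdc18 and Csn3, against 2.31% of all genes tested. The list median was 0.55 against -0.01 over all genes tested. Lcn2 differed by 0.55 (adjusted p = 0.0765) and Trf by 0.40 (adjusted p = 0.187), and both passed without the large cell (0.83, adjusted p = 0.000140, and 0.59, adjusted p = 0.00820). In TEneg library 2, which holds that cell, Lcn2 stood at 145, above every TEpos library. All 5 tested luminal regulators, 7 epithelial genes, 9 heat shock genes and 44 oxidative phosphorylation genes missed the threshold. The secretory share was 2.80 ± 0.986% in TEneg and the heat shock share 1.06%.

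Of the 25 immediate early genes tested, 6 were higher in TEpos and Ctgf was lower. Over all genes tested, 2.31% were higher and 5.16% lower. The list median was 0.55 against -0.01 over all genes tested. This list was chosen with earlier results of these data known, so its count and median are no test of it. Fos stood at 29.7, 4.73, 24.6 and 12.3 in TEneg, so the groups overlapped between the highest TEneg and lowest TEpos libraries. Its difference was 1.05 (SE 0.237, adjusted p = 0.00205), lost without the block (adjusted p = 0.141) and without library 4 (adjusted p = 0.0996). Phlda1 stood at 17.9, 11.1, 11.6 and 11.1 in TEneg, with no overlap, and differed by 0.94 (SE 0.199, adjusted p = 0.00132). Zfp36 differed by 1.24 (adjusted p = 0.00304) and Fosb by 1.75 (adjusted p = 0.00379). Jun and Dusp1 passed by less, at 1.004 (adjusted p = 0.0237) and 1.41 (adjusted p = 0.0448), and both were lost without the block (adjusted p = 0.216 and 0.120). Phlda1 was called with any library left out, whereas Zfp36 was lost without library 2 (adjusted p = 0.224), Fosb without 1, 2 or 4, Jun without 2, 3 or 4 and Dusp1 without 1, 2 or 4 (adjusted p from 0.0687 to 0.319). Fos, Zfp36, Fosb, Jun and Dusp1 were also lost by DESeq2 (adjusted p from 0.0920 to 0.342). The same genes were lost in cells of at least 1500 transcripts (edgeR adjusted p from 0.181 to 0.333). By limma on means of cells all 6 were lost, Phlda1 among them (adjusted p from 0.0762 to 0.125, Phlda1 0.0907). The list's share was 2.01%, 0.859%, 1.56% and 1.02% in TEneg, with TEneg library 1 above 2 of the TEpos libraries.

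The largest differences upward were in the glandular genes of few cells. Car6 differed by 3.55 (SE 0.383, adjusted p = 8.17e-09) and stood at 0.583 to 1.88 in TEneg, overlapping TEpos library 4 at 1.46. Scgb2b27 differed by 2.57 (adjusted p = 8.02e-06). Both were called under every alternative run. The cells with most Car6 transcripts held 128 in library 2 and 103 in library 1. Leaving out library 1 or 2 drops 1 of these cells, but no alternative dropped both. How far the calls rest on few cells was therefore not tested. Clca3 differed by 3.61 (adjusted p = 1.78e-05), but by 1.84 (adjusted p = 0.120) without the wells of the shared barcode. Outside these, Clic6, a chloride channel protein gene of secretory epithelium, differed by 1.37 (adjusted p = 0.00574) and Ifrd1, a stress-responsive transcription cofactor gene, by 1.77 (adjusted p = 0.0341). Ppp1cb, a phosphatase subunit gene, and Rpl39 passed at 0.95 and 0.66. These 4 were each lost with 1 or another library left out, and Ifrd1 and Rpl39 also without the block (adjusted p = 0.0681 and 0.298).

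Of the 38 genes lower in TEpos, 13 were on the lists of basal, endothelial and mesenchymal genes and 25 on none of these. The others included Apoe, a lipid carrier protein gene (-1.83, adjusted p = 8.67e-05), and Ctgf, a matrix signalling protein gene (-2.26, adjusted p = 0.00711). Col4a1, a collagen chain of basement membrane, stood at 1.18, 0.977, 2.66 and 0 in TEpos and 20.01, 20.6, 26.7 and 32.7 in TEneg. Its log2 difference was -4.40 (adjusted p = 1.38e-11), and Col4a2, its partner chain, followed at -3.94. Sparc, a matrix protein gene, stood at 2.36, 5.65, 3.34 and 2.56 against 36.96, 29.97, 30.1 and 54.3 (-3.41, adjusted p = 3.97e-13). Acta2 stood at 0.672, 1.83, 0.998 and 2.19 against 34.6, 4.49, 10.2 and 48.6 (-3.74, adjusted p = 8.17e-09). In each of these the groups did not overlap, and each was called under every alternative in which it was tested.

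Counts were too small for a fold in some of them. Mylk, a kinase of smooth muscle contraction, had 3 transcripts in TEpos against 91 in TEneg, a ratio of 0.0318 with a counting interval of 0.00644 to 0.0959. Cdh5, the cadherin of endothelium, had 3 against 65 (0.0445, 0.00895 to 0.136), and Gpihbp1, a lipase anchor of capillaries, 3 against 45 (0.0643, 0.0128 to 0.200). Igfbp3, a secreted binding protein of insulin-like growth factors, differed by -3.86 (adjusted p = 2.37e-08). Vim, the mesenchymal intermediate filament gene, stood at 2.15 ± 0.591 against 12.6 ± 7.22 (-2.44, adjusted p = 2.82e-07). Over all genes tested, 5.16% were lower. All 4 tested basal genes, all 5 endothelial genes and 4 of 5 mesenchymal genes were lower, of 12, 12 and 16 measured. Among these calls, Tgfbi had 0 transcripts in TEpos and 0.725 ± 0.765 per 10000 in TEneg (adjusted p = 0.0283), and was lost in 7 of 14 alternatives, among them DESeq2 and leaving out library 1, 3 or 4. Tpm2, a tropomyosin gene, passed (-2.01, adjusted p = 0.0341) but was lower in 2 of 4 libraries only. A gene enters this test when 1 population holds enough transcripts, so lists low in TEpos are represented by their members high in another population.

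Among the 25 most abundant genes, 4 were higher than in TEneg (Wfdc18, Csn3, Fos and Phlda1) and 2 lower. Actb, beta actin, differed by -0.70 (adjusted p = 0.0136) and was lost without the block (adjusted p = 0.108) and without library 1 or 4. Igfbp5 stood at 55.2, 66.7, 54.6 and 116 in TEneg and differed by -0.68 (SE 0.186, adjusted p = 0.0143), lower in 4 of 4 libraries with overlapping groups. Without library 4 its adjusted p was 0.108, and without the block 0.317.

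**Figure D5:**
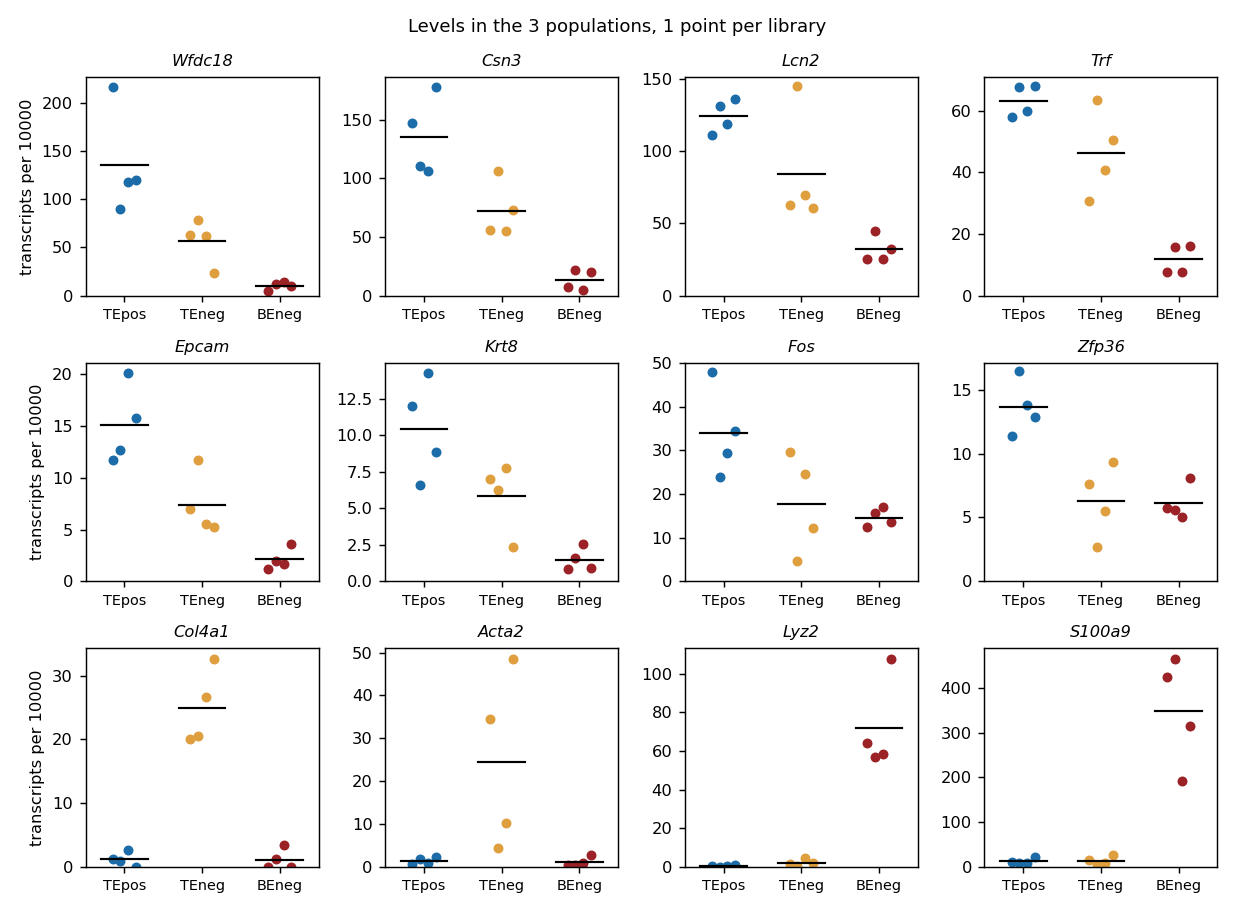
Level of 12 genes in TEpos, TEneg and BEneg, in transcripts per 10000 from 0; points are the 4 libraries and bars their mean. Wfdc18, Csn3, Lcn2 and Trf fall in steps of their means from TEpos to BEneg, Col4a1 and Acta2 are high in TEneg, and Lyz2 and S100a9 in BEneg.

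The comparison with BEneg shares the TEpos sums with the previous one and is therefore not independent of it. It set tumour epithelium against blood cells that carried myeloid genes, and 362 of 736 genes were called (49.2%), 152 higher in TEpos (20.7%) and 210 lower (28.5%). When libraries were scaled by their total transcripts instead, the median over all genes moved from 0.03 to 0.37 and the split became 234 higher and 185 lower, so small differences depend on the scaling. At this background, a call by itself says little about a list. Without library 1 the calls were 235.

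The markers other than Cdh1 were higher in TEpos than in BEneg. Wfdc18 stood at 5.31, 12.3, 14.4 and 9.89 in BEneg and differed by 3.56 (SE 0.302, adjusted p = 2.68e-12), and Csn3 at 7.41, 22.3, 5.07 and 19.9 with a difference of 3.14 (SE 0.267, adjusted p = 2.68e-12). Krt18, Epcam and Krt8 differed by 3.07, 2.67 and 2.63, and Cdh1 by 0.32 (adjusted p = 0.566). Csn3 was nevertheless read in 31 of 60 BEneg cells and, after thinning, in 34.3% against 90.5% of TEpos cells, at median depths of 819 and 2064 transcripts; whether these are transcripts of the BEneg cells was not tested. All 5 tested milk genes, of 23 measured, were higher, against 20.7% of all genes tested. Among them Trf differed by 2.23 and Lcn2 by 1.78.

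Gata3, Hes1, Sox10 and Sox9 were higher in TEpos by 2.21, 3.02, 1.38 and 1.21, while Cebpb, also used by myeloid cells, was lower by 0.85 on this scale (-0.85, adjusted p = 0.00750). Over all genes tested, 20.7% were higher and 28.5% lower. The lists were chosen with earlier results of these data known, so the counts per list are no test of them. Of 25 immediate early genes, 10 were higher and 5 lower. Fosb (3.07), Egr1 (2.78), Phlda1 (2.67), Jun (1.95) and Fos (0.96) rose, and Klf2 (-3.43), Mcl1 (-2.45), Socs3 (-1.94), Btg1 (-1.54) and Dusp1 (-0.93) fell. Fos was lost without library 1 (0.49, adjusted p = 0.198), and Dusp1 without library 2 or 4 and without the block (adjusted p = 0.117). Heat shock genes rose in 5 of 9, among them Hspa1b by 2.87 and Hspb1 by 2.43. Membrane transport genes rose in 5 of 6, led by Fxyd3 (2.71) and Clic6 (2.51), and both tested lipid genes, Srebf1 and Scd2, rose. Oxidative phosphorylation genes rose in 9 of 44 and genes of the secretory machinery in 4 of 17.

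Some genes had at most 3 transcripts in BEneg. Scgb2b27 had 2 transcripts in BEneg (TEpos over BEneg ratio 40.1, counting interval 11 to 334). Hey1, a Notch target, had 55 transcripts against 1 (21.2, 3.65 to 853), the gap junction gene Gja1 46 against 1, the tubulin regulator gene Stmn1 71 against 2 and the membrane carbonic anhydrase gene Car12 63 against 2. Outside these, the uncharacterised 1600029D21Rik differed by 3.91 and Cyr61, a matrix signalling protein gene, by 3.26.

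Leukocyte genes lay at the other end. All 10 tested pan-leukocyte, 8 monocyte and macrophage and 9 neutrophil genes were lower in TEpos, of 12, 14 and 13 measured. Over all genes tested 28.5% were lower. List medians were -5.17, -5.79 (genes at 0 set to their bound) and -5.75. The filter lets in members of such lists that are high in another population, so these counts and medians are no test of the lists. Lyz2 differed by -8.02 (SE 0.362, adjusted p = 4.62e-20) and S100a9 by -5.20. Ccr2, the chemokine receptor of monocytes, had 0 transcripts in TEpos against 59 and was at least 51-fold lower, with 3 transcripts over the group as the floor. Tgfbi (0 against 60) was at least 51.8-fold lower and Bin2 (0 against 43) at least 37.1-fold lower. All 4 tested interferon-induced genes, of 18 measured, were lower. Ifitm3 was among them, lower by 1.88 on the log2 scale (-1.88, adjusted p = 4.64e-08). B2m, the light chain of MHC class I, differed by -1.001.

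Experiment i gives values of cells with the same sorting label from other libraries and another table, set side by side without a test. Its second library stood apart from the label. Epithelial genes held 0.520% of its transcripts against 1.31% in the first, and markers of other cells held more: monocyte and macrophage genes 1.19% against 0.0573%, mesenchymal genes 0.787% against 0.0413%, basal genes 0.719% against 0.0530%, leukocyte genes 0.400% against 0.0133% and endothelial genes 0.226% against 0.019997%. In TEpos these 5 lists held 0.0847%, 0.103%, 0.0609%, 0.0747% and 0.0677%. The part of these markers in the other values of the second library was not tested.

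Of the 25 leading TEpos genes, 15 were among the 25 of the first library of experiment i and 13 among those of the second. The secretory list held 3.03% in the first and 1.55% in the second, the immediate early list 0.560% and 0.633%, the heat shock list 0.739% and 0.974%, and division genes 0.142% and 0.107%. Fos stood at 1.54 and 0.43 per 10000 and Wfdc18 at 27.5 and 3.88. Without the second library, the values of the first still placed both genes and the secretory and immediate early shares below every TEpos library described here. The third library of experiment i had 1 used cell.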

How the data were processed

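Single cells of 4 CEL-seq libraries of experiment ii were analysed, with 2 libraries of experiment i as side values. BWA 0.6.2-r126 and the mm10 build are named in the submitters' processing notes. How reads were counted is not stated there. The authors deposited estimated counts, 1 per gene and well, made from molecular barcodes and, from their values, not normalized between wells. Each equals the estimate from a whole number of the 256 barcodes possible, to within 3.1e-13. The 73 spike-in transcripts were left out of totals. Wells were meant to hold 1 sorted cell and no doublet caller was run.

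Wells with at least 500 transcripts were kept, estimated counts were summed per library and population (at least 3 cells) and rounded, and TEpos, TEneg and BEneg were fitted together in edgeR 4.0.16 under R 4.3.3 (glmQLFit, glmQLFTest, TMM scaling, filterByExpr), with library as a block. Standard errors were derived from the fold change and the F statistic. The pairing comes from the labels, which place the populations in the same libraries. As a check, deviations of TEpos sums correlated with those of TEneg in the same library at 0.191, 0.094, 0.057 and 0.223, and with those of BEneg at 0.193, 0.079, 0.199 and 0.277. Sums of the TEpos libraries differed from each other by more than the counting of transcripts alone gives (chi-square per degree of freedom 2.14 to 2.91). That value takes no account of the different cells drawn for each library, so it is a description. On simulated sums for TEpos against TEneg (621 genes tested), the fit called 48 of 79 genes changed 2-fold (60.8%), 80 of 82 changed 4-fold (97.6%) and 0 of 460 unchanged genes. These sums had a fixed dispersion for all genes, no difference between libraries other than depth, and no single cells. They therefore do not show how often the fit errs on the real libraries.

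For spread between cells, wells were thinned to 500 transcripts, averaged over 50 draws (Python 3.11.15, NumPy 2.4.6, pandas 2.3.3). Ratios of counts carry 95% intervals that cover counting error only. Named genes were the 25 most abundant non-ribosomal genes, the 20 with the widest spread between cells, the 12 highest and 6 lowest called genes per comparison, the 6 markers, up to 6 members per list and the 8 most and 4 least variable genes between libraries; other genes named were chosen after their values were seen. The members and gene lists were chosen with earlier results of these data known. Motifs were searched in the 250 bases before each RefSeq start (GRCm38.p6). Alternatives used another scaling, DESeq2 1.42.0, limma 3.58.1 on means of cells, no filter, no block, deeper cells, each library left out, and, chosen after seeing the data, the deepest cells or the wells of the shared barcode left out.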

Additional observations from a re-analysis of the deposited data

Results flagged for a closer look

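Of 46 named genes and list shares examined over the 4 TEpos libraries, 2 had a library whose gap to the nearest other library was above Dixon's 95% limit for 4 values, a rate that chance alone gives in about 1 of 20 groups. Igfbp5 stood at 76.2 transcripts per 10000 in library 4 against 39.8, 40.3 and 36.5 in libraries 1 to 3 (ratio 0.904). Tpt1 stood at 71.1 in library 4 against 57.5, 57.4 and 54.9 (ratio 0.842). Igfbp5 was also highest in TEneg library 4, at 116. Library 4 was the library with the lowest ribosomal share, 19.2%, and the part of that share in either value was not tested.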

How the results depend on the processing

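Without the library block (no pairing) 41 of the 55 genes were called against TEneg, all 41 among the 55, and 323 of 362 against BEneg; of the 25 leading genes 2 instead of 4 were then higher than in TEneg. DESeq2 called 34 against TEneg (2 of the leading genes), limma on means of cells 34 (2), cells of at least 1500 transcripts 25 (1) and the fit without the large TEneg cell 101 (7). With no filter the calls were 99 and, against BEneg, 581, and with cells of at least 1500 transcripts 133 against BEneg. Leaving out each library in turn gave 26 to 60 calls against TEneg and 235 to 349 against BEneg, and 1 to 5 and 9 to 13 of the leading genes called higher. DESeq2 called 5 genes higher and 29 lower than in TEneg, and limma 227 higher and 183 lower than in BEneg. With ribosomal protein genes taken out of the total, the shares were 6.26% (milk and secretory), 1.05% (epithelial), 0.507% (luminal regulators), 2.74% (immediate early) and 1.36% (heat shock). Thinning to 1000 transcripts put 25 genes above the spread limit instead of 16. None of the 27 named genes called against TEneg and of the 49 called against BEneg changed its sign under an alternative; other called genes were not followed. Depth limits the rare genes: 0 transcripts over the 71 cells allow a level of up to 0.159 per 10000, and 48 of them held at least 1500 transcripts.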
